A study of Mus musculus with 20 samples.

Results

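The proteasome subunit genes were taken from the count table as the genes with a symbol made of Psma, Psmb, Psmc, Psmd or Psme and a number, with 10 or more counts in each of the 20 mice. Of the 25239 genes in the table, 43 had such a symbol and 41 passed. Psma8, a testis form of an alpha subunit (2 to 17 counts per mouse), and Psmb11, the catalytic subunit of the thymus (0 to 8 counts), did not pass. The 41 genes were divided into 17 core genes (Psma and Psmb) and 24 regulatory genes (Psmc, Psmd and Psme).

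The proteasome is the main protease of the cytosol and nucleus for proteins tagged with ubiquitin. Its core particle is a barrel of stacked rings, in which alpha subunits form the gate and beta subunits hold the proteolytic sites. A regulatory particle caps the barrel: its base unfolds the substrate with ATPases, and its lid removes ubiquitin. Immune cells and cells exposed to interferon exchange the catalytic beta subunits for inducible forms that shape peptides for MHC class I, and neurons depend on the proteasome for protein turnover at synapses.

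Gene expression in the preoptic area (POA) of 20 male mice was measured by RNA-Seq in 4 groups of 5. Control SS and dnFGFR SS mice were paired at PND20 with a male partner, and control OS and dnFGFR OS mice with a female partner, and tissue was collected at PND320, after 300 days. The dnFGFR mice carry a transgene for a truncated FGFR1 without its kinase domain, driven by a rat GnRH promoter and so directed to GnRH neurons, which are few among the cells of the POA. Controls were bred from heterozygous dnFGFR siblings, dnFGFR breeders were homozygous, and OS mice bred and raised litters, so OS housing includes mating and the presence of pups. Counted reads per mouse ranged from 34109579 to 39871353 in control SS mice, from 32353578 to 35497607 in control OS mice, from 34336830 to 37778957 in dnFGFR SS mice and from 33055203 to 36872761 in dnFGFR OS mice, so 1 CPM (counts scaled to library size with TMM factors) is about 35 reads. The labels do not say whether libraries were prepared in separate batches. In the study's sample list, control mice were sacrificed in June and July and dnFGFR mice in May, with the exception of dnFGFR SS 4 (November). Genotype therefore cannot be told apart from date.

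The tissue was checked with marker genes. All 8 markers of the POA were detected in every mouse, among them Gnrh1 at 0.949 to 2.53 CPM and Esr1 at 3.94 to 7.80 CPM. Striatal markers were far more abundant, with Ppp1r1b at 522 to 1132 CPM and Drd1 at 107 to 183 CPM. The labels give the tissue as medial POA of the brain and also name whole-brain as cell type. Of the T cell markers, Cd3d was at 0 in 19 mice, Cd8a at 0 in 12 and Cd3e at 0 in 8, and none exceeded 0.153 CPM. In bulk tissue, fewer cells of a type and less RNA per cell cannot be told apart.

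Promoter sequences of the members are given by RefSeq for GRCm38.p6 as the 250 bases before and 50 bases after the start, and 35 of the 41 members were matched to 38 promoters. They are shown for a motif that bears on how the subunits are regulated. TGACNNNGC, the core of the antioxidant response element, is read by NFE2L1 and NFE2L2. Of these factors, NFE2L1 raises subunit genes when proteasome activity falls. On either strand, 6 of 38 member promoters (15.8%) held it, in Psmb5, Psmb6, Psmc6, Psmd12, Psmd9 and Psme4, against 12.4% of all 32851 promoters. CCAAT, read by NF-Y, was found in 34.2% of member promoters and 37.4% of all, and TATAAA in 10.5% and 13.6%. These shares were near the background, and a match of letters is not a binding site. The 4 stretches of 100 bases below belong to the 4 members with the motif and the highest level per length, each 5′ to 3′ on the strand of the gene with the motif in capitals. In Psmd12 and Psmc6 the motif lies on the other strand, so its reverse complement is in capitals. Psmb5 lies on the minus strand at chr14:54617996-54618095, Psmb6 on the plus strand at chr11:70525257-70525356, Psmd12 on the plus strand at chr11:107479278-107479377 and Psmc6 on the plus strand at chr14:45329574-45329673. In Psmb5 and Psmb6 these are the 100 bases just before the start, and in Psmd12 and Psmc6 bases 250 to 151 before it.
Psmb5: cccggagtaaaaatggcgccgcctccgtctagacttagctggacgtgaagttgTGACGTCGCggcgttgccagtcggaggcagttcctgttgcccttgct
Psmb6: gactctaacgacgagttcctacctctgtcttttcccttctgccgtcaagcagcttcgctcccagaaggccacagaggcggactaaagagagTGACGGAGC
Psmd12: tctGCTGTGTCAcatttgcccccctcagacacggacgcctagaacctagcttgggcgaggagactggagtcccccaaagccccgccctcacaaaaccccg
Psmc6: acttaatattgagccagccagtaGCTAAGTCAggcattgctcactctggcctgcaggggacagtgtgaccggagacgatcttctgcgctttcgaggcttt

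A pair of mice stood apart and both were in the dnFGFR OS group. In a principal component analysis of 17445 genes, dnFGFR OS 5 lay at 69.2 on the first component and dnFGFR OS 2 at -29.8, while the other mice lay between -15.4 and 15.97. These mice also had the extreme values of the proteasome genes, which was noticed in the data and is given as a description. dnFGFR OS 2 was the highest of the 20 mice in 31 of 41 members (75.6%), against 16.5% of all genes tested. It was highest in all 7 alpha, all 7 constitutive beta and all 6 ATPase genes, and in 6 of 8 lid genes. It lay above the median of the 20 mice in 40 of 41 members, by a median of 0.37 on the log2 scale, and below it in Psme4, an activator of the core (-0.23). dnFGFR OS 5 was the lowest in 20 of 41 members (48.8%), against 22.8% of all genes. These were 10 of 17 core (58.8%) and 10 of 24 regulatory genes (41.7%).

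In dnFGFR OS 5 members lay on both sides of their median. Of the 17 core genes 16 lay below their median, with Psmb10 (-0.70), Psmb5 (-0.68) and Psmb3 (-0.67) lowest on the log2 scale. Of the 24 regulatory genes 7 lay above their median, among them Psmd1, a scaffold of the base (0.41), Psme4 (0.24) and Psmd5, a chaperone of base assembly (0.22). Psmd1, Psme3 and Psme4 were higher in this mouse than in any other (3 of 41 members, against 20.7% of all genes tested).

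**Figure D1:**
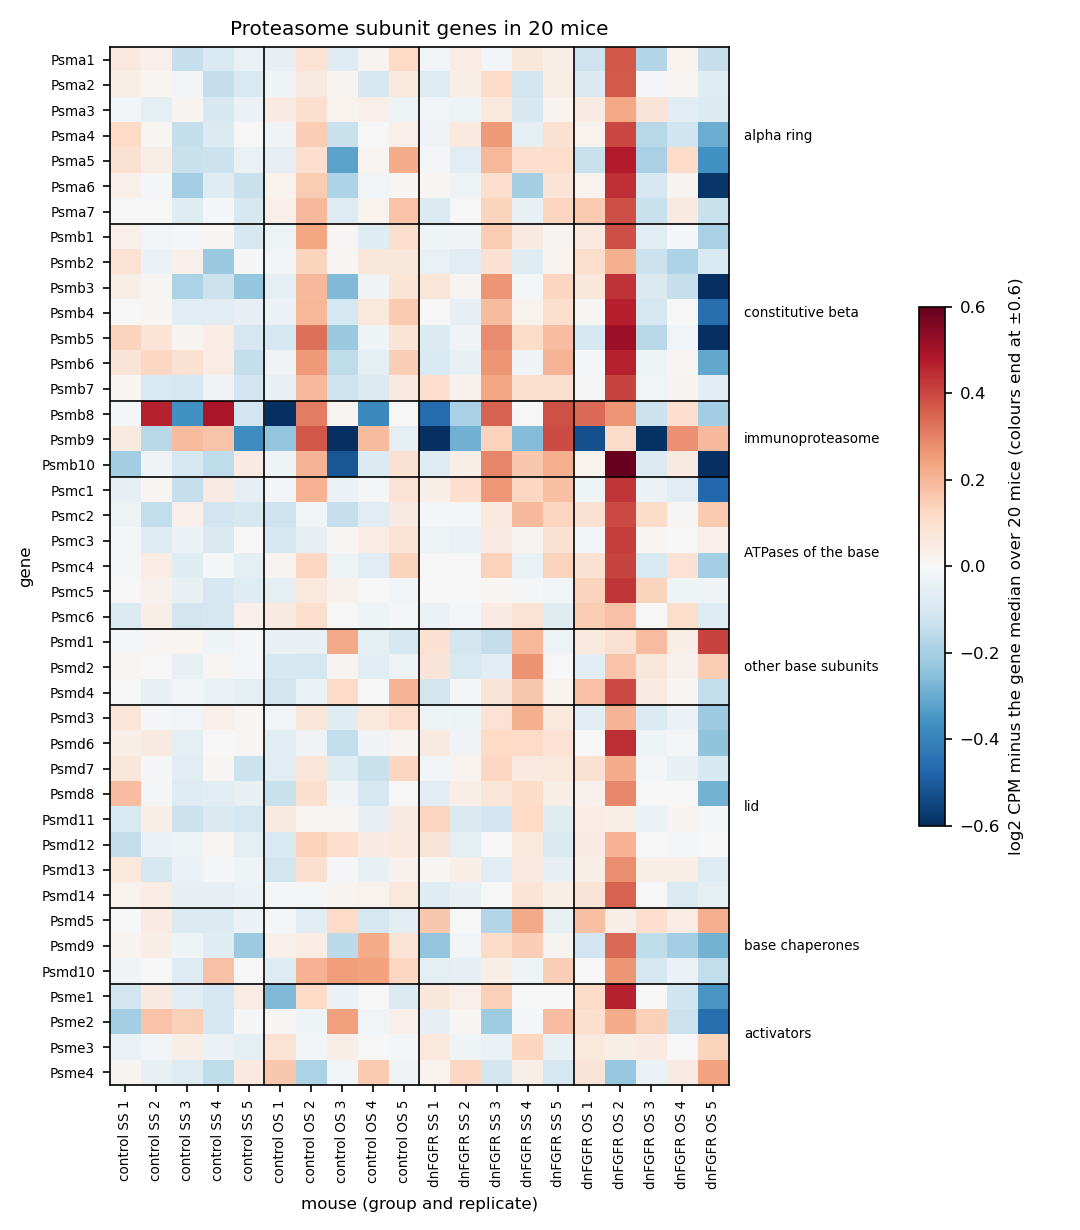
Log2 CPM minus the median of the gene over 20 mice, with genes in rows by role and mice in columns by group. Red is above and blue below the median, and colours end at ±0.6. The column of dnFGFR OS 2 is red in 40 of 41 rows, and that of dnFGFR OS 5 is blue in 32 rows.

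The mean log2 CPM over the core members was 5.60 in dnFGFR OS 2 and 4.93 in dnFGFR OS 5, and 5.02 to 5.40 in the other 18 mice. Over the regulatory members it was 6.23, 5.90 and 5.93 to 6.07. After the trend of each mouse on GC content and gene length was removed, the core means of these mice were 5.55 and 5.08, and those of the others 5.07 to 5.32, so that dnFGFR OS 2 remained highest and dnFGFR OS 5 no longer lay outside the others. Marker lists were summed in the same mice. The 8 POA markers summed to 45.5 CPM in dnFGFR OS 2, with no marker at 0, and to 82.9 CPM in dnFGFR OS 5 (63.5 to 86.1 in the mice other than dnFGFR OS 2). The 6 oligodendrocyte markers summed to 4681 CPM in dnFGFR OS 2, next to the lowest (4652 in dnFGFR SS 4, up to 8306), and to 6266 CPM in dnFGFR OS 5. The 4 endothelial markers were lowest of the 20 mice in dnFGFR OS 2 (123 CPM) and highest in dnFGFR OS 5 (173 CPM), opposite to most members, and the 6 astrocyte markers summed to 1062 and 1362 CPM. Neuronal markers summed to 4013 CPM in dnFGFR OS 2 and 3978 CPM in dnFGFR OS 5 (2936 to 4164 over the 20 mice). Striatal markers summed to 1661 and 1275 CPM (1015 to 2048). The part of these lists in the levels of the members was not tested. Counted reads were 36872761 in dnFGFR OS 2 and 33364395 in dnFGFR OS 5, within the range of all mice, and reads fell on 18416 genes in dnFGFR OS 5 against 19101 or more in the others.

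**Figure D2:**
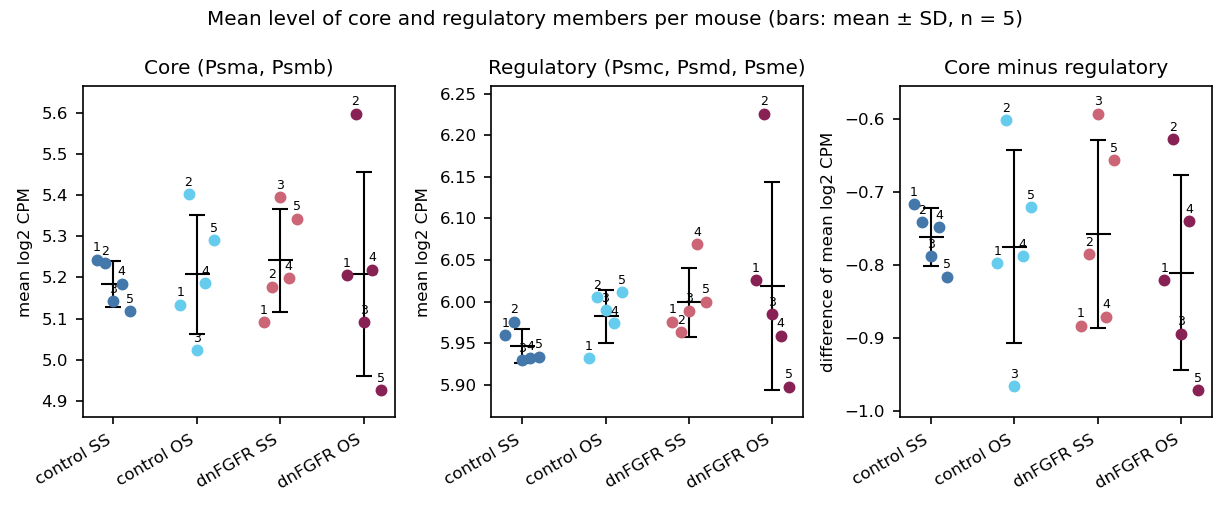
Mean log2 CPM of core and of regulatory members and their difference in each mouse (points, numbered by replicate), with mean ± SD of each group (n = 5). The dnFGFR OS group has the widest spread in both classes, from 4.93 to 5.60 in the core and from 5.90 to 6.23 in the regulatory members.

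The 41 members took up 0.250% to 0.333% of the counted reads, and both ends of this range were dnFGFR OS mice. Levels of different genes were compared as CPM per kilobase of annotated exons (mean ± SD, n = 20 mice). Psmc5, an ATPase of the base, had the highest level at 93.7 ± 8.04, followed by Psmb5, the subunit with chymotrypsin-like activity, at 55.5 ± 9.0. Per length of the transcript matched to RefSeq, Psmc5 was again the highest, while Psmb5 was in place 13. Psmb9 (0.359 ± 0.0986) and Psmb8 (0.850 ± 0.191), subunits of the inducible immunoproteasome, had the lowest levels.

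By role, the median level of the members in CPM per kilobase was 36.3 for the 6 ATPases of the base and 28.4 for the 3 other base subunits. It was 26.5 for the 7 constitutive beta subunits, 22.8 for the 8 lid subunits and 21.3 for the 7 alpha subunits. It was lower for the 4 activators (11.2), the 3 chaperones of base assembly (6.86) and the 3 immunoproteasome subunits (0.850). Core and regulatory members had almost equal medians, 22.6 and 22.4. In the order of levels, 35 of 40 neighbouring pairs overlapped within their mean ± SD, and only Psmc5 and Psmb5, Psmb10 and Psmd11, Psme4 and Psmd9, Psmd9 and Psmb8, and Psmb8 and Psmb9 did not. With the length of the transcript matched to RefSeq, which leaves out exons of other transcripts, the medians were 52.1 for core and 43.4 for regulatory members. By this length the order of the roles changed: the median was 59.8 for other base subunits, 58.9 for constitutive beta subunits, 56.4 for ATPases, 51.8 for alpha and 43.4 for lid subunits.

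**Figure D3:**
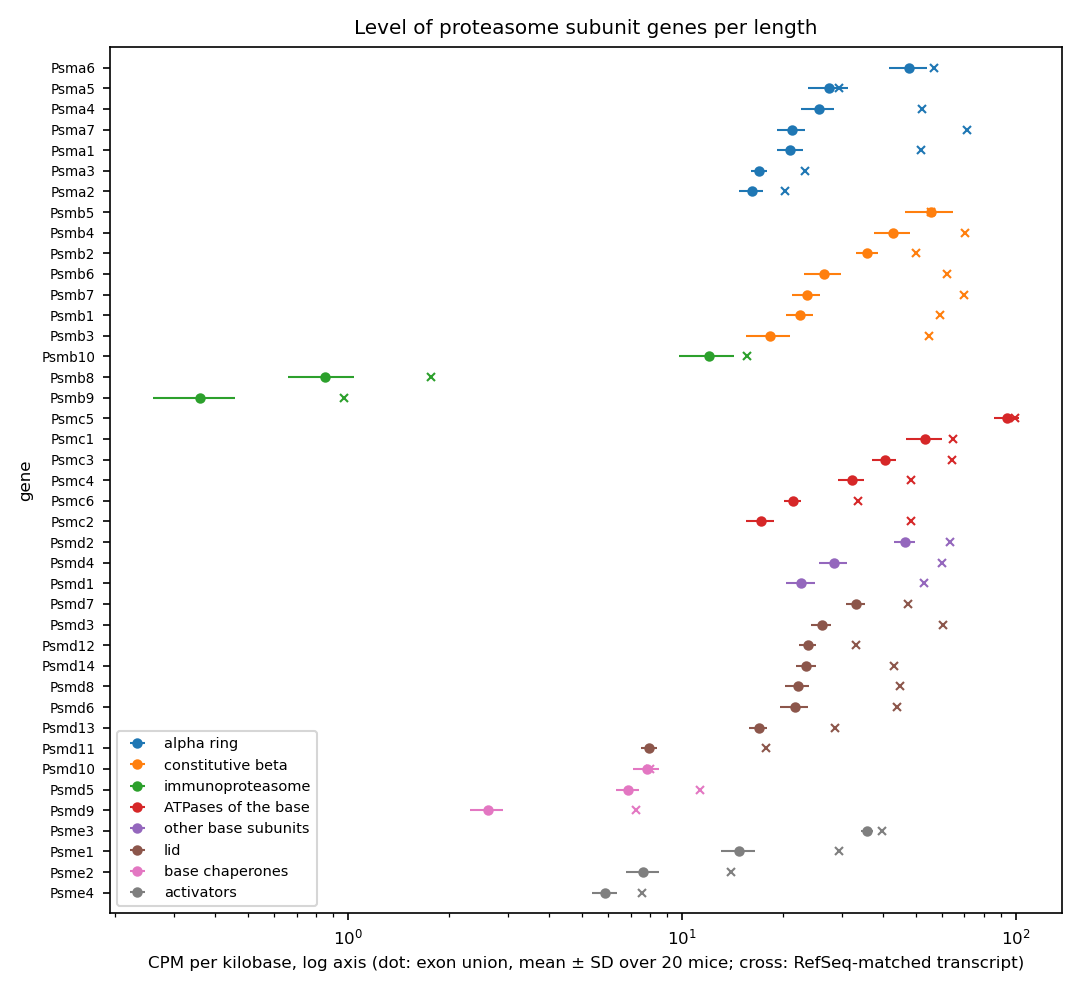
CPM per kilobase on a log axis for each of the 41 genes, with genes in rows grouped by role. Dots are means over 20 mice per length of the exon union with SD as bars, and crosses are the same means per length of the RefSeq-matched transcript. Psmc5 lies highest at 93.7, and Psmb8 and Psmb9 lie below 1 by the exon union.

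Each catalytic beta subunit has an inducible counterpart, and the pairs were compared per kilobase within each mouse. Psmb9 stood at 1.35% ± 0.359 of Psmb6, the subunit with caspase-like activity (SD, n = 20 mice, range 0.626% to 2.10%). Psmb8 stood at 1.55% ± 0.330 of Psmb5 (range 0.993% to 2.11%). Psmb10 differed from these, at 50.8% ± 6.27 of Psmb7, the subunit with trypsin-like activity (range 33.2% to 60.6%). The last share depends on the length used, and was 22.4% ± 2.76 with transcripts matched to RefSeq, while the first pair gave 1.56% and the second 3.21%. By group, the share for Psmb9 was 1.43% ± 0.185 in control SS, 1.33% ± 0.391 in control OS, 1.24% ± 0.383 in dnFGFR SS and 1.42% ± 0.497 in dnFGFR OS mice (SD, n = 5 each). The shares for Psmb10 were 51.2% ± 5.40, 49.7% ± 5.76, 52.4% ± 3.90 and 49.9% ± 10.2 in the same order, so the groups lay within their spread. Reads of Psmb9 may be mixed with those of Tap1, with which it shares 212 exonic bases on the other strand, because the strand option of the counting is not given in the sources used here. The same holds for Psmb7 and Nek6 (405 bases), Psmd13 and Sirt3 (342 bases) and Psmd1 and Htr2b (252 bases). It also holds for Psmc3 and Slc39a13 (215 bases), Psma4 and AY074887 (114 bases) and Psme1 and Emc9 (14 bases). Psmb5 shares 109 exonic bases with Mir686 on the same strand, so a strand option would not separate their reads.

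The levels of 4 catalytic subunits in every mouse follow, and those of Psmb7 and Psmb10 are given with the genotype comparison. Psmb5 measured 53.5, 51.7, 49.3, 50.3 and 45.5 CPM in control SS mice, 45.3, 61.5, 41.8, 47.9 and 51.7 in control OS mice, 46.1, 48.1, 59.5, 52.8 and 55.5 in dnFGFR SS mice and 45.4, 69.6, 43.5, 48.3 and 30.4 in dnFGFR OS mice. All groups overlapped, and the highest and the lowest of the 20 values were dnFGFR OS 2 and dnFGFR OS 5. Psmb6 measured 50.5, 52.2, 51.1, 49.3 and 43.3 CPM in control SS mice, 47.1, 57.3, 43.1, 46.1 and 53.1 in control OS mice, 45, 46.5, 57.6, 47.2 and 55.2 in dnFGFR SS mice and 47.5, 66.1, 47.1, 48.3 and 38.6 in dnFGFR OS mice, with the same mice at the ends. Psmb8 measured 2.77, 3.85, 2.17, 3.92 and 2.57 CPM in control SS mice, 1.69, 3.45, 2.81, 2.13 and 2.78 in control OS mice, 2.03, 2.44, 3.57, 2.8 and 3.64 in dnFGFR SS mice and 3.53, 3.35, 2.55, 2.99 and 2.41 in dnFGFR OS mice. For this inducible subunit the groups overlapped throughout. Psmb9 measured 1.44, 1.24, 1.58, 1.56 and 1.07 CPM in control SS mice, 1.18, 1.8, 0.624, 1.58 and 1.33 in control OS mice, 0.551, 1.14, 1.53, 1.16 and 1.82 in dnFGFR SS mice and 0.964, 1.5, 0.919, 1.68 and 1.59 in dnFGFR OS mice, and again the groups overlapped.

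**Figure D4:**
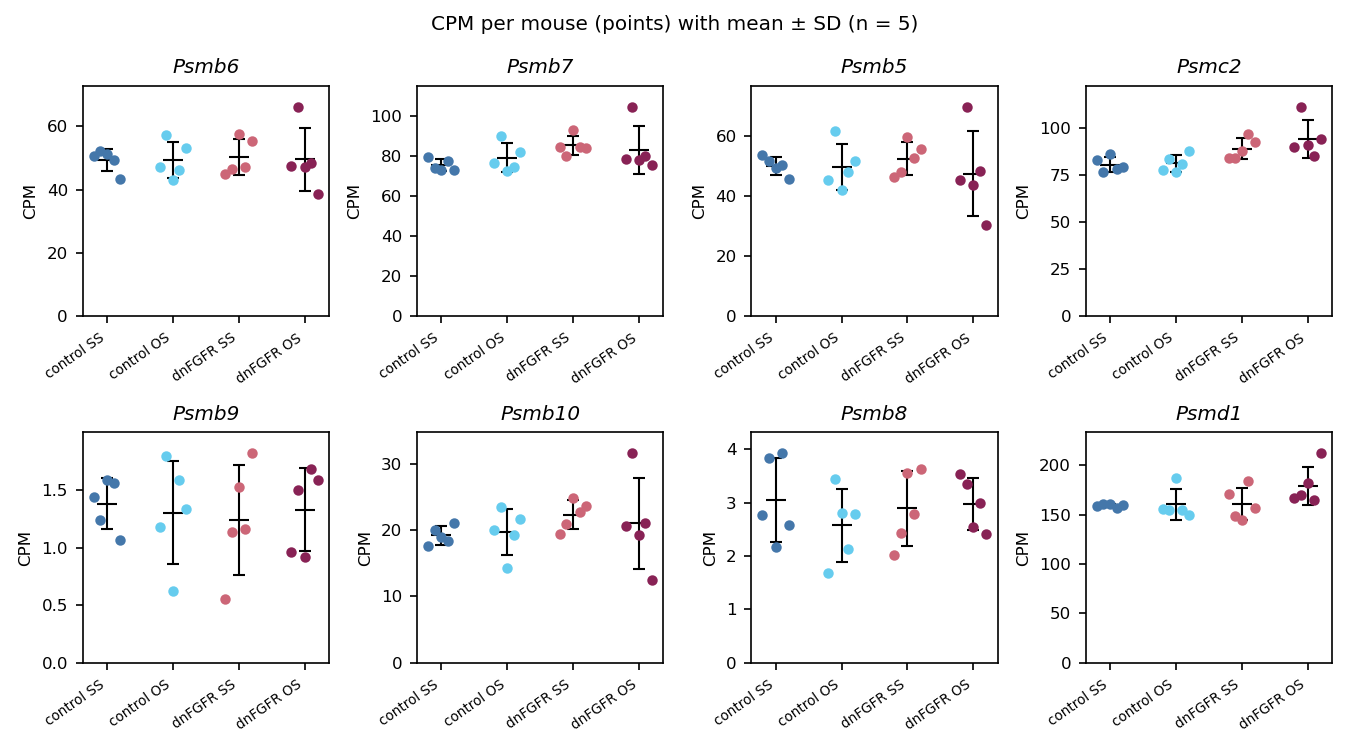
CPM on a linear axis from 0 for 8 members, with points for mice, bars for mean ± SD (n = 5) and groups along the horizontal axis. The constitutive catalytic subunits Psmb6, Psmb7 and Psmb5 stand above their inducible counterparts Psmb9, Psmb10 and Psmb8, and the highest point of Psmb7 (104.4 CPM) and of Psmc2 (111 CPM) belongs to dnFGFR OS 2.

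The core varied more between mice than the regulatory genes. The median SD of log2 CPM over 20 mice was 0.17 for core and 0.12 for regulatory members, and 0.14 for all genes in the range of levels that held the members other than Psmb8, Psmb9 and Psmb10. Without dnFGFR OS 2 and dnFGFR OS 5 these became 0.10, 0.08 and 0.12. Psme3, a nuclear activator, varied least among the members (SD 0.06) and Psmb9 most (SD 0.45). Psmb9 is the member with the fewest reads, at 0.551 to 1.82 CPM. Members of 1 complex and 1 library are not independent, so no test was made of this difference.

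The difference between core and regulatory members, as mean log2 CPM of the first minus that of the second, was -0.76 ± 0.04 in control SS, -0.78 ± 0.13 in control OS, -0.76 ± 0.13 in dnFGFR SS and -0.81 ± 0.13 in dnFGFR OS mice (SD, n = 5 each). The group means lay closer together than the SD within each group other than control SS. This quantity is not divided by length and includes Psmb8 and Psmb9. With medians over members in place of means it lay between -0.35 and -0.25 in the 4 groups. Control SS mice spanned -0.82 to -0.72, control OS mice -0.97 to -0.60, dnFGFR SS mice -0.88 to -0.59 and dnFGFR OS mice -0.97 to -0.63.

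For OS against SS housing in control mice, 0 of 41 members passed an adjusted p of 0.1 (edgeR quasi-likelihood test, Benjamini-Hochberg over 17004 genes, of which 0.124% passed). DESeq2 and limma voom with quality weights also called 0 members, against 0.726% and 0.388% of all genes. An unadjusted p under 0.05 in edgeR was reached by 0 members (7.2% of all genes). Fold changes were small: 34 members lay above 0 (50.9% of all genes did), with a median log2 fold change of 0.04 against 0.00 for all genes and a range of -0.25 to 0.14. The median was 0.06 for core and 0.04 for regulatory members. With GC and length trends removed, the median of the members was 0.02 and 28 lay above 0. Without that removal all 7 alpha genes and all 6 ATPase genes lay above 0, as did 6 of 7 constitutive beta and 6 of 8 lid genes.

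The members with the smallest p in control mice were Psmd12, a lid subunit, and Psma7, an alpha subunit. Psmd12 measured 56.5, 60.8, 61.3, 62.7 and 59.9 CPM in control SS mice and 58.6, 68.8, 66.9, 64.5 and 65 CPM in control OS mice. The groups overlapped, with a fitted difference of 0.10 ± 0.05 on the log2 scale (± is the SE of the fit here and below; adjusted p = 0.729, edgeR). Psma7 had a log2 difference of 0.11 ± 0.06 (adjusted p = 0.732, edgeR). In the other direction, Psmd6, a lid subunit, was at -0.06 ± 0.05 (adjusted p = 0.858, edgeR) and Psmd2, a scaffold of the base, at -0.05 ± 0.04 (adjusted p = 0.859, edgeR). In the same comparison 3 of 4 endothelial markers were below 0 (median -0.08), with Cldn5 at -0.46 ± 0.09 (adjusted p = 0.104, edgeR) and Ly6c1 at 0.25 ± 0.07 (adjusted p = 0.348, edgeR). All 4 striatal markers were below 0 (median -0.11), 2 of them with an unadjusted p under 0.05 (3.54% of all genes, in that direction). All 5 choroid plexus markers were above 0 (median 1.52). The part of these markers in the levels of the members was not tested.

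When housing was compared within dnFGFR mice, 0 of 41 members passed (edgeR, 16944 genes, of which 0% passed). The smallest adjusted p among the members was 0.770 (edgeR). DESeq2 and limma voom with quality weights called 0 members, against 0.0231% and 0% of all genes. In edgeR 0 members had an unadjusted p under 0.05 (6.72% of all genes). Of the members 23 lay above 0 (50.9% of all genes), with a median log2 fold change of 0.01, from -0.15 to 0.16. The classes lay on either side of 0, with a median of -0.02 over the core and 0.03 over the regulatory members. Of the 6 ATPases 5 lay above 0 (median 0.08), and of the 7 constitutive beta subunits 2 did (median -0.04). All 4 striatal markers were below 0 (median -0.25), 2 of them with an unadjusted p under 0.05 (3.77% of all genes, in that direction). The part of these markers in the levels of the members was not tested here either.

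Psmd1 measured 171, 148, 145, 184 and 157 CPM in dnFGFR SS mice and 167, 170.1, 182, 165 and 212 CPM in dnFGFR OS mice. The highest value was dnFGFR OS 5 and the groups overlapped, and the log2 difference was 0.16 ± 0.09 (adjusted p = 0.770, edgeR). Psmc5 had 0.14 ± 0.08 (adjusted p = 0.771, edgeR), with 128, 128, 129, 127 and 127 CPM in dnFGFR SS mice and 140.4, 173, 140.4, 126 and 126 CPM in dnFGFR OS mice, of which dnFGFR OS 2 was the highest. Psmc1, another ATPase of the base, was at -0.15 ± 0.13 (adjusted p = 0.830, edgeR) and Psmd3, a lid subunit, at -0.10 ± 0.08 (adjusted p = 0.830, edgeR).

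The median in dnFGFR mice depended on single mice. Without dnFGFR OS 2 it was -0.05, with 13 members above 0 and 5 with an unadjusted p under 0.05 in edgeR, all below 0 (Psma4, Psmb5, Psmb3, Psmc1 and Psmd3; 9.49% of all genes, in that direction). Without dnFGFR OS 5 it was 0.05, with 33 members above 0 and 1 with an unadjusted p under 0.05, Psmc5, above 0 (2.54% of all genes, in that direction). With both set aside, a choice made after the data were seen, it was -0.04, with 13 members above 0 and 2 with an unadjusted p under 0.05, both below 0 (7.65% of all genes, in that direction). It was also just below 0 without dnFGFR SS 1 (-0.002) and without dnFGFR SS 2 (-0.005). In each of these, 0 members passed an adjusted p of 0.1 (edgeR).

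For dnFGFR against control genotype in SS mice, which uses the SS mice of both housing comparisons, 0 of 41 members passed an adjusted p of 0.1 (edgeR, 16992 genes, of which 0.2% passed). An unadjusted p under 0.05 was reached by 5 members, all higher in dnFGFR SS mice (4.12% of all genes were, in that direction). These were Psmb7, Psmc1, Psmb3, a constitutive beta subunit, Psmc2, an ATPase of the base, and Psmb10, and the same 5 genes were found when each of the 10 mice was left out in turn. With all 4 groups in 1 fit the number was 2 (Psmb7 and Psmc2; 2.25% of all genes in that direction and fit). Of the members 37 lay above 0 (51.6% of all genes), with a median log2 fold change of 0.06 against 0.00 for all genes. The median was 0.07 for core and 0.05 for regulatory members, and all alpha, constitutive beta, ATPase and lid genes lay above 0.

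Psmb7 (chromosome 2, 38588046 to 38643952, GRCm38) measured 79.4, 73.9, 73.2, 77.6 and 72.8 CPM in control SS mice and 84.6, 80.1, 92.9, 84.3 and 84.1 CPM in dnFGFR SS mice. Every dnFGFR SS mouse was above every control SS mouse, and this was the case for no other member (0.73% of all genes did not overlap and were higher). The log2 difference was 0.18 ± 0.05 (adjusted p = 0.263, edgeR), so it did not pass, while DESeq2 gave 0.18 with an adjusted p of 0.0936, under the threshold. DESeq2 called 1.04% of all genes it tested in this comparison. In OS mice Psmb7 measured 76.3, 90.1, 72.4, 74.6 and 82 CPM in controls and 78.3, 104, 77.9, 79.7 and 75.4 CPM in dnFGFR mice, with overlap and a log2 difference of 0.07 ± 0.09 (adjusted p = 0.890, edgeR).

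Psmc1 measured 97, 101, 91.2, 104 and 97 CPM in control SS mice and 103, 108, 120.2, 109 and 114 CPM in dnFGFR SS mice. The groups overlapped by 1 mouse on each side, and the log2 difference was 0.18 ± 0.05 (adjusted p = 0.316, edgeR). Psmb10 measured 17.6, 20, 18.9, 18.3 and 21.1 CPM in control SS mice and 19.4, 20.8, 24.9, 22.7 and 23.6 CPM in dnFGFR SS mice, with overlap and 0.22 ± 0.08 (adjusted p = 0.439, edgeR). In OS mice Psmb10 measured 20, 23.4, 14.2, 19.2 and 21.7 CPM in controls and 20.6, 31.5, 19.2, 21.1 and 12.5 CPM in dnFGFR mice, where dnFGFR OS 2 was the highest and dnFGFR OS 5 the lowest of the 20 values. Psmb3 was at 0.20 ± 0.07 (adjusted p = 0.390, edgeR), with means of 39.6 ± 3.25 and 45.4 ± 3.49 CPM (SD, n = 5). The members with the smallest p in the other direction were the other immunoproteasome subunits, Psmb9 at -0.15 ± 0.27 and Psmb8 at -0.08 ± 0.21 (adjusted p of 0.922 and 0.948, edgeR), whose sign turned when single mice were left out.

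Cell type markers were compared between genotypes in the same mice. All 6 oligodendrocyte markers were below 0 (median -0.17) and 3 had an unadjusted p under 0.05, and their summed level was 6826 ± 601 CPM in control SS and 6019 ± 930 CPM in dnFGFR SS mice (SD, n = 5). Of 4 endothelial markers 3 were below 0 with an unadjusted p under 0.05 (median over the 4 of -0.21), and of 10 microglial markers 3 were below 0 and 1 above 0 with such a p (median -0.07). Of all genes tested, 4.51% were lower and 4.12% higher with such a p. All 5 neuronal markers were above 0 (median 0.08), 1 with such a p, and Snap25 was at 0.19 ± 0.08 (adjusted p = 0.528, edgeR). All 4 striatal markers were below 0 (median -0.19), 3 of them with an unadjusted p under 0.05. Gnrh1, expressed in the neurons to which the transgene is directed, was at -0.67 ± 0.20 (adjusted p = 0.308, edgeR). The part of these shifts in the levels of the members was not tested.

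For dnFGFR against control genotype in OS mice, 0 of 41 members passed (edgeR, 16941 genes, of which 0.0531% passed). An unadjusted p under 0.05 was reached by 1 member, Psmc2, higher in dnFGFR OS mice (3.1% of all genes were, in that direction). Of the members 26 lay above 0 (50% of all genes), with a median log2 fold change of 0.03, of 0.00 over the core and 0.05 over the regulatory members. Without dnFGFR OS 2 the median was -0.04, 11 members lay above 0 and 4 had an unadjusted p under 0.05 (Psmd5 and Psmc2 higher, Psmd9 and Psmd10 lower; 13.5% of all genes had one), and without dnFGFR OS 5 it was 0.08 and 34 lay above 0. With both set aside it was -0.01, 17 lay above 0 and 0 had an unadjusted p under 0.05 (8.78% of all genes).

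Psmc2 (chromosome 5, 21785275 to 21803787, GRCm38) measured 77.7, 83.7, 77, 80.9 and 87.9 CPM in control OS mice and 90.3, 111, 91.4, 85 and 94.5 CPM in dnFGFR OS mice. The highest was dnFGFR OS 2, the groups overlapped, and the log2 difference was 0.22 ± 0.08 (adjusted p = 0.654, edgeR). In SS mice it measured 83, 76.5, 86.5, 78.1 and 79.2 CPM in controls and 84.4, 84.1, 88.2, 97 and 92.7 CPM in dnFGFR mice, with 0.15 ± 0.05 (adjusted p = 0.437, edgeR). SS and OS comparisons share no mice, and Psmc2 was the one member with an unadjusted p under 0.05 in both. With GC and length trends removed it no longer had one in OS mice (log2 difference 0.17), where Psmc5, Psmd2 and Psmc3 did, all above 0 (5.11% of all genes, in that direction), and the median of the members in OS mice was 0.06. Within 5 Mb of Psmc2, 3 of 73 other genes tested passed an adjusted p of 0.1 in SS mice (Abcb8, Galnt11 and Prkag2os1) and 2 of 72 in OS mice (Asic3 and Prkag2os1), in edgeR, and 22 and 16 had an unadjusted p under 0.05 (8.63% and 7.02% of all genes in these comparisons). Chromosome 5 held 9 of the 34 genes that passed in SS mice, and 1027 of the 16992 genes tested. In OS mice it held 2 of the 9 that passed and 1028 of the 16941 tested. The part of linked sequence in the level of Psmc2 was not tested.

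Psmd5 was at 0.14 ± 0.07 between genotypes in OS mice (adjusted p = 0.723, edgeR), with means of 47.8 ± 2.87 CPM in control OS and 52.8 ± 2.93 CPM in dnFGFR OS mice (SD, n = 5). Psmd10 (-0.15 ± 0.11, adjusted p = 0.799, edgeR) and Psmd9 (-0.11 ± 0.12, adjusted p = 0.856, edgeR), the other chaperones of base assembly, lay on the other side of 0. All 4 striatal markers were below 0 in OS mice as well (median -0.29), 3 with an unadjusted p under 0.05. Their summed levels were 1738 ± 130 CPM in control OS and 1361 ± 239 CPM in dnFGFR OS mice. All 6 oligodendrocyte markers (median -0.14) and all 4 endothelial markers (median -0.08) were below 0 too, 2 and 1 of them with such a p. All 5 choroid plexus markers were below 0 (median -0.81), 0 with such a p. Of 5 neuronal markers 4 were above 0 (median 0.15), and 2 above 0 had such a p. Of all genes tested, 3.93% were lower and 3.1% higher with such a p. The part of these marker lists in the levels of the members was not tested.

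**Figure D5:**
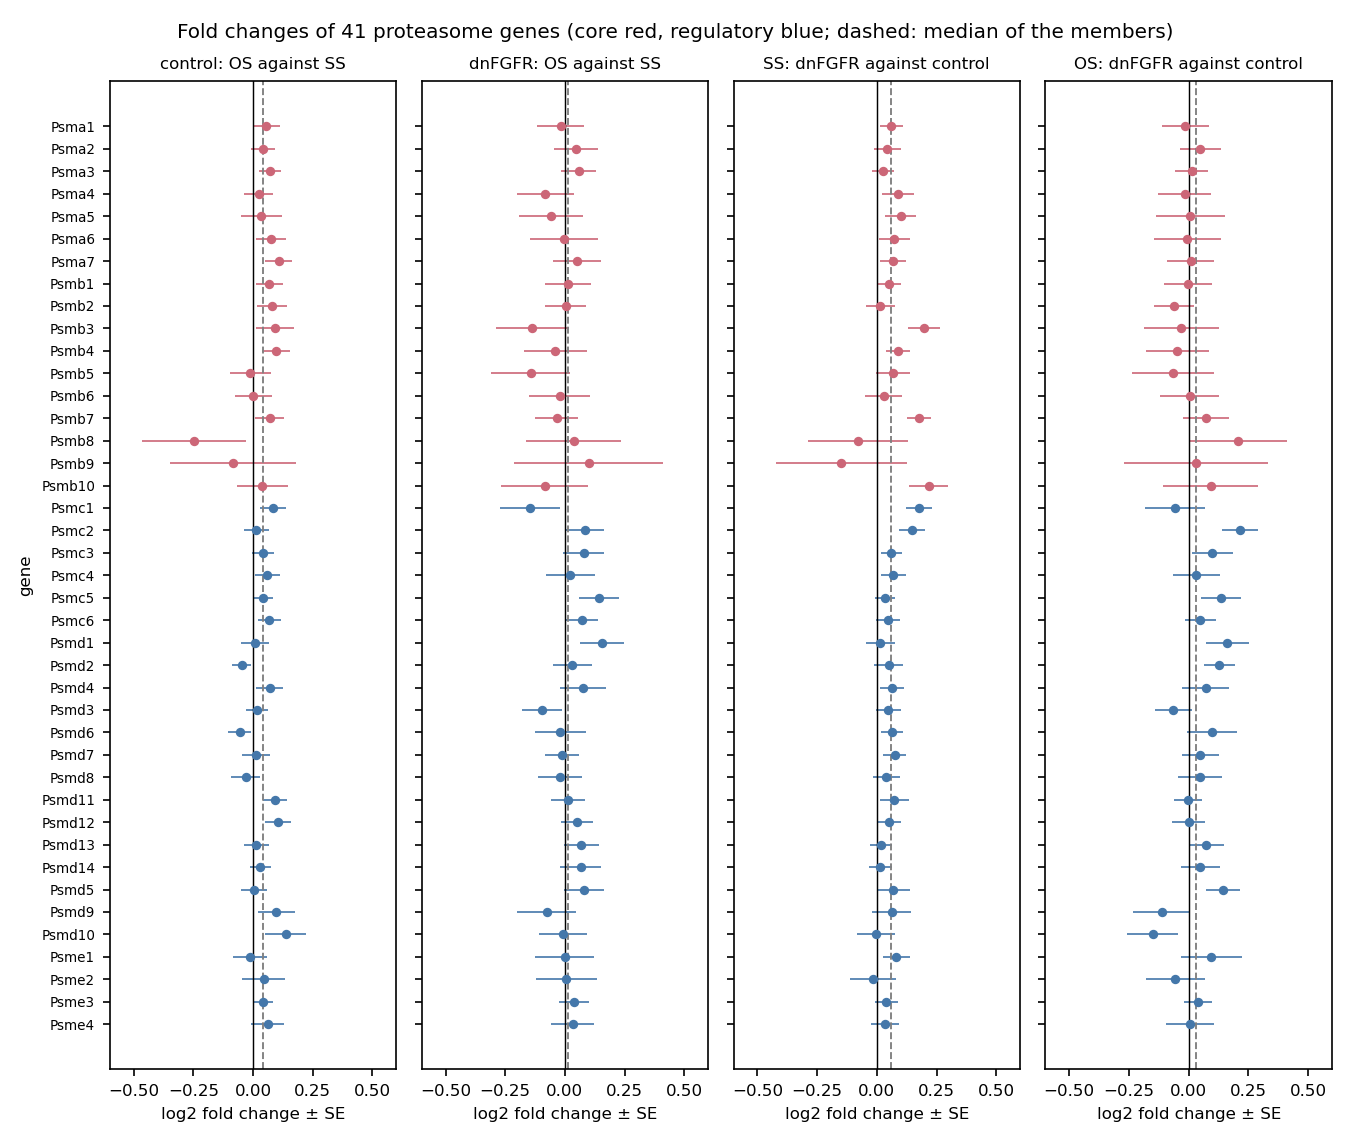
Log2 fold change with SE from edgeR for each of the 41 members (rows) in 4 comparisons (panels), with core members in red and regulatory members in blue. Dashed lines are the median of the members, which is 0.04, 0.01, 0.06 and 0.03 from left to right. In the third panel 37 members lie right of 0, and no member passed an adjusted p of 0.1 in any panel.

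The housing by genotype interaction asks whether housing acted differently in the genotypes. It gave 0 members with an adjusted p under 0.1 (edgeR, 17445 genes, of which 0% passed). By DESeq2 and limma voom with quality weights 0 members passed as well, against 0.00451% and 0% of all genes. In edgeR 0 members had an unadjusted p under 0.05 (3.41% of all genes). The median was -0.03, with -0.08 over the core and 0.01 over the regulatory members, and 16 of 41 members lay above 0 (50.1% of all genes). All 7 constitutive beta and 6 of 7 alpha genes lay below 0. Psmc1 was at -0.23 ± 0.15 and Psmb3 at -0.23 ± 0.18, and Psmd1 at 0.15 ± 0.11 and Psmc5 at 0.10 ± 0.09 (each with an adjusted p of 0.963, edgeR). Without dnFGFR OS 2 the median was -0.08 and 8 members had an unadjusted p under 0.05, all below 0 (6.35% of all genes, in that direction). Without dnFGFR OS 5 the median was 0.02 and 0 members did (2.59% of all genes). With both set aside it was -0.08, with 9 members above 0 and 3 with an unadjusted p under 0.05. These were Psmc1, Psmd9 and Psmb7, all below 0 (4.25% of all genes, in that direction). In all mice, with GC and length trends removed, the median was 0.01 (core -0.02, regulatory 0.02) and 23 members lay above 0.

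The other genes of the pathway were 43 genes in 5 lists, and 0 of them passed an adjusted p of 0.1 in any of the 5 comparisons (edgeR). Among 13 proteins bound to the proteasome, Uchl5, a deubiquitinase of the base, had an unadjusted p under 0.05 in 3 comparisons. Of the 13, 1 had such a p for housing in dnFGFR mice, 1 for genotype in SS mice and 2 in OS mice, all above 0. Of all genes 2.95%, 4.12% and 3.1% had one in that direction, in the same order. Uchl5 measured 34.6, 31.5, 33, 34.2 and 35.4 CPM in dnFGFR SS mice and 39.4, 40.4, 37.2, 36.3 and 44.4 CPM in dnFGFR OS mice. Every dnFGFR OS mouse was above every dnFGFR SS mouse (0.732% of all genes did not overlap in this direction), and the log2 difference was 0.23 ± 0.07 (adjusted p = 0.726, edgeR). Between genotypes it was at 0.15 ± 0.06 in SS mice (adjusted p = 0.467, edgeR) and at 0.25 ± 0.08 in OS mice (adjusted p = 0.6004, edgeR), and these comparisons share groups with the first. Usp14, another deubiquitinase bound to the base, was at 0.14 ± 0.07 between genotypes in OS mice (adjusted p = 0.709, edgeR).

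Of 13 regulators of transcription and turnover, 3 had an unadjusted p under 0.05 for housing in control mice, all above 0. For housing in dnFGFR mice 2 had one, both below 0. Between genotypes 1 was above 0 with such a p in SS and 1 in OS mice, and 1 was below 0 for the interaction. Of all genes 3.66%, 3.77%, 4.12%, 3.1% and 1.89% had one, in the same directions and order. Maff, a small partner of NFE2L1 and NFE2L2, measured 1.68, 2.09, 0.694, 0.894 and 0.815 CPM in control SS mice and 2.54, 2.94, 2.5, 3.38 and 2.84 CPM in control OS mice. The groups did not overlap (as for 0.853% of all genes, in this direction), and the log2 difference was 1.21 ± 0.28 (adjusted p = 0.192, edgeR). Between genotypes in SS mice it was at 1.29 ± 0.33 (adjusted p = 0.217, edgeR). Both comparisons use the control SS mice. In dnFGFR mice the mean of Maff was 3.01 ± 1.21 CPM with SS and 2.415 ± 1.09 CPM with OS housing (SD, n = 5), lower with OS housing. Nfe2l2 was at 0.23 ± 0.08 for housing in control mice (adjusted p = 0.492, edgeR), and Nfe2l1 at -0.16 ± 0.07 for housing in dnFGFR mice (adjusted p = 0.726, edgeR). None of the 5 chaperones of core assembly and none of the 5 ubiquitin genes had an unadjusted p under 0.05 in any comparison. All 7 partners of the immunoproteasome in class I loading and interferon signalling lay below 0 between genotypes in SS mice (median -0.08). There 0 had an unadjusted p under 0.05 (8.63% of all genes). For housing in control mice their median log2 fold change was -0.17 and 5 of 7 lay below 0. In that comparison 1 had an unadjusted p under 0.05, below 0 (3.54% of all genes, in that direction). The mean log2 CPM of the core assembly chaperones was 4.01 in dnFGFR OS 2 and 3.21 in dnFGFR OS 5, the highest and lowest of the 20 mice, as it was for the core members.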

How the data were processed

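POA samples of 20 mice were analysed. The deposited values are raw counts per RefSeq gene, which the authors made with Rsubread after HISAT2 alignment to the GRCm38 build. Strand and multi-mapping options are not given in the sources used here. The table also held 20 columns that were not used here, because they belong to no sample used.

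The members and gene lists were chosen with earlier results of these data known. Genes were tested on all genes together with edgeR 4.0.16 (quasi-likelihood test, TMM, filterByExpr, R 4.3.3) at an adjusted p of 0.1, in the mice of the compared groups only. Means of lists are log2 CPM with a prior count of 2. Exon lengths and GC content come from the GENCODE annotation of GRCm38. Named members were the 6 catalytic subunits, in each comparison the 2 higher and 2 lower members with the lowest p and the 2 highest and lowest per length. Pathway and marker genes, Psmb3 and Psmc2 in SS mice, and members named for single mice were chosen after their values were seen. Alternatives were DESeq2 1.42.0, limma 3.58.1 (voom with quality weights for each mouse), RLE size factors, other filters and a threshold of 0.05. Further ones were 1 fit over all groups, a replicate block, removal of GC and length trends, and sacrifice dates as a block. A prior count of 0.5, medians over members, other gene lengths and leaving out each mouse were also used. The steps were tested on simulated data. Values of some single genes are not reported here. No 2 libraries of a group agreed within sampling noise. The labels do not say more about how mice of a group were related, so p-values measure the spread between these mice.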

Additional observations from a re-analysis of the deposited data

Results flagged for a closer look

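Among 44 groups of 5 mice checked for named members, 1 held a mouse far from the others in that group. Psmb7 was at 104.4 CPM in dnFGFR OS 2, while the other mice of the group lay between 75.4 and 79.7 CPM. About 1 in 20 such groups are marked by chance. The same mouse was the highest of the 20 in 31 of the 41 members.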

How the results depend on the processing

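The number of members that passed stayed at 0 in every comparison under each alternative run, except that DESeq2 called 1, Psmb7, between genotypes in SS mice, where it called 1.04% of all genes. Leaving out single mice kept it at 0. Without single mice the median log2 fold change ranged from 0.03 to 0.06 for housing in control mice, from -0.05 to 0.05 in dnFGFR mice, from 0.04 to 0.07 for genotype in SS mice, from -0.04 to 0.08 in OS mice and from -0.08 to 0.02 for the interaction. Between genotypes in SS mice, without single mice, Psmb9 ranged from -0.33 to 0.034, and was above 0 without dnFGFR SS 1. Psmb8 ranged from -0.18 to 0.030, and was above 0 without control SS 2 (0.022), without control SS 4 and without dnFGFR SS 1 (0.023). Under limma voom with quality weights for each mouse, the median was -0.01 for housing in dnFGFR mice and -0.003 for genotype in OS mice. With GC and length trends removed it was 0.01 for the interaction. The causes of these changes of sign were not tested.

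With the replicate block, 0 members passed in any comparison, the median log2 fold change was 0.04, 0.00, 0.06 and 0.02 for the 4 comparisons and -0.04 for the interaction, and together with GC and length trends removed it was 0.02, -0.01, 0.05, 0.05 and 0.01. Replicate numbers did not pair the mice: correlations of same-numbered deviations ran from -0.24 to 0.26. Within sacrifice dates the housing medians were 0.05 in control and 0.01 in dnFGFR mice. With medians over members in place of means, core minus regulatory was -0.25, -0.26, -0.27 and -0.35 in controls with SS and OS housing and in dnFGFR mice with SS and OS housing. Without single mice the means ranged from -0.77 to -0.75, from -0.82 to -0.73, from -0.80 to -0.73 and from -0.86 to -0.77. Per longest transcript the median level was 43.1 for core and 35.5 CPM per kilobase for regulatory members, and per RefSeq-matched transcript, added after the data were seen, 52.1 and 43.4.

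Psmb9 and Psmb8 have the fewest reads. The median SE of the members was 0.06 and 0.10 on the log2 scale for housing in control and dnFGFR mice, and 0.06 and 0.10 for genotype in SS and OS mice.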
